A study of Mus musculus with 36 samples.

Results

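The 8 bile acid synthesis genes are described here in mouse liver during a year of carbon tetrachloride (CCl4), a solvent that injures hepatocytes and scars the liver when given repeatedly. The members were taken by symbol from a table of read counts with 32544 genes: Cyp7a1, Cyp8b1, Cyp27a1, Cyp7b1, Slc27a5, Baat, Nr1h4 and Nr0b2. All 8 were found, and all 8 were among the 15338 genes that passed the filter on low counts. Total liver RNA depleted of ribosomal RNA was sequenced in 36 libraries, in 6 groups of 6 numbered replicates, each called a mouse here. All mice were male C57BL/6N, 8 to 10 weeks old at the start. The CCl4 groups received 1 g/kg in olive oil by intraperitoneal injection 2 times a week for 2, 6 or 12 months and were sampled on day 6 after the last injection. The oil groups received the vehicle for 2 or 12 months, and a month 0 group is titled control while its treatment label reads olive oil. No oil group of month 6 was analysed here, so the month 6 CCl4 group was set against the average of the month 2 and month 12 oil groups.

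Bile acids are made from cholesterol in hepatocytes. In the classic route CYP7A1 takes the first and rate-limiting step, and CYP8B1 then adds the hydroxyl group that makes cholic acid. In the alternative route CYP27A1 oxidizes the cholesterol side chain in mitochondria and CYP7B1 hydroxylates the resulting oxysterols. SLC27A5 joins the acid to coenzyme A and BAAT transfers it to taurine or glycine. Returning bile acids activate the farnesoid X receptor, encoded by Nr1h4, which induces the small heterodimer partner encoded by Nr0b2, a repressor of Cyp7a1 and Cyp8b1.

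Sequences are shown for a synthesis gene that was lower in CCl4 livers at every month and for the repressor that was not called at any month. RefSeq promoters (GRCm38.p6, 250 bases before to 50 bases after the start of the gene) were at hand for 4 of the 8 members, Cyp8b1, Cyp27a1, Nr0b2 and Nr1h4. Capitals mark matches to CAAAGTCCA, an element of hepatocyte nuclear factor 4 alpha, to CAAGGNCA, an element of liver receptor homolog 1, or to TCAAGG, a shorter form of the same element. The last overlaps CAAGGNCA where a T stands before it. All motifs were searched on both strands.
Cyp8b1, chr9:121916256-121916555, minus strand: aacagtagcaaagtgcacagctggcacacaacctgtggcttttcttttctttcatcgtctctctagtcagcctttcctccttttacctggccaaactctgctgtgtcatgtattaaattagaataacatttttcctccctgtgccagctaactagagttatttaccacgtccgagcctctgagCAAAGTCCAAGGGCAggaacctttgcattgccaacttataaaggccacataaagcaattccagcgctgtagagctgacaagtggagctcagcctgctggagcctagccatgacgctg
Nr0b2, chr4:133553126-133553425, plus strand: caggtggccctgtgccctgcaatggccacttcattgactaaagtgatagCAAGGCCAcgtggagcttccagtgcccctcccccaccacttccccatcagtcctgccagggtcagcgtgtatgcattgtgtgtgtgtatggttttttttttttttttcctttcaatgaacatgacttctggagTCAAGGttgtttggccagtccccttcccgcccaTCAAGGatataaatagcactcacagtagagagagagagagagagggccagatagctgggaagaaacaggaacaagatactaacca
In Cyp8b1 the first motif began 67 bases before the start site and overlapped the second, which began 60 bases before it. In Nr0b2 TCAAGG began 68 and 35 bases before the start site, and CAAGGNCA began 201 bases before it. The promoters of Cyp27a1, also called lower in CCl4 livers at every month, and of Nr1h4 held no match to these motifs. The part of these elements in the levels was not tested. Of 32851 promoters of 300 bases, 0.475% held CAAAGTCCA, 6.71% held CAAGGNCA and 14.4% held TCAAGG.

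On mm10 the genes of the classic route lie at chr4:6265612-6275633 (Cyp7a1, minus strand) and chr9:121914356-121916305 (Cyp8b1, minus strand). Those of the alternative route lie at chr1:74713574-74737892 (Cyp27a1, plus strand) and chr3:18071950-18243338 (Cyp7b1, minus strand). Baat is at chr4:49489422-49506557 and Slc27a5 at chr7:12988346-12998192, both on the minus strand. Nr1h4 is at chr10:89454234-89533585 on the minus strand and Nr0b2 at chr4:133553376-133556536 on the plus strand.

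Levels are CPM, read counts scaled to a common library total after TMM normalisation. Differences are log2 fold changes of CCl4 over oil from 1 edgeR quasi-likelihood fit over all 36 libraries. Their standard error (SE) is approximate. It was derived from the test, as the absolute log2 fold change divided by the square root of the F statistic. Calls rest on an adjusted p under 0.05 (Benjamini-Hochberg, over all genes tested). At month 2, 3 of the 8 genes were called lower and none higher, where 10.4% of all genes tested were called and 3.38% called lower. At month 6, 3 of 8 were called lower and none higher (11.4% of all genes called, 3.68% lower). At month 12, 6 of 8 were called lower and none higher (49.1% of all genes called, 23.2% lower). The median log2 fold change of the 8 genes was -0.36, -0.31 and -1.35 at months 2, 6 and 12, beside 0.00, 0.00 and 0.01 over all genes tested. The month 2 and month 12 comparisons each share their oil mice with the month 6 comparison. The CCl4 range lay wholly below the oil range for 3 genes at month 2 (2.4% of all genes), 2 at month 6 (0.945%) and 5 at month 12 (10.2%). The month 12 effect was lower than the month 2 effect, by the interaction term of the same fit, for 4 of 8 genes (21.3% of all genes called, 10.1% lower). In whole liver, fewer hepatocytes and less RNA per hepatocyte cannot be told apart.

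Some libraries stood apart. Pancreas and intestine genes summed to over 10000 CPM in 8 of the 36 libraries (2 of month 0, 1 of month 2 CCl4, 3 of month 2 oil and 2 of month 12 oil). Without those 8 libraries the month 2 count was 1 of 8, Cyp8b1, with 2.96% of all genes called, the month 6 count was 2 of 8 (5.38%) and the month 12 count was 7 of 8 (42.3%). Library totals were 19403247 to 28917545 counts, and the TMM factors were 1.236 to 1.334 in month 12 CCl4 livers and 0.781 to 1.014 in month 12 oil livers. With library totals as the only scaling, the median log2 fold change of all genes was 0.20, 0.31 and 0.56 at months 2, 6 and 12, and the changes reported here are relative to the TMM centre. Under that scaling the month 6 calls among the 8 genes were 2 higher (Slc27a5 and Nr1h4) and 2 lower (Cyp8b1 and Cyp7b1). Alb and Hpx, the most abundant of 11 hepatocyte markers in the table, were detected in every group.

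**Figure D1:**
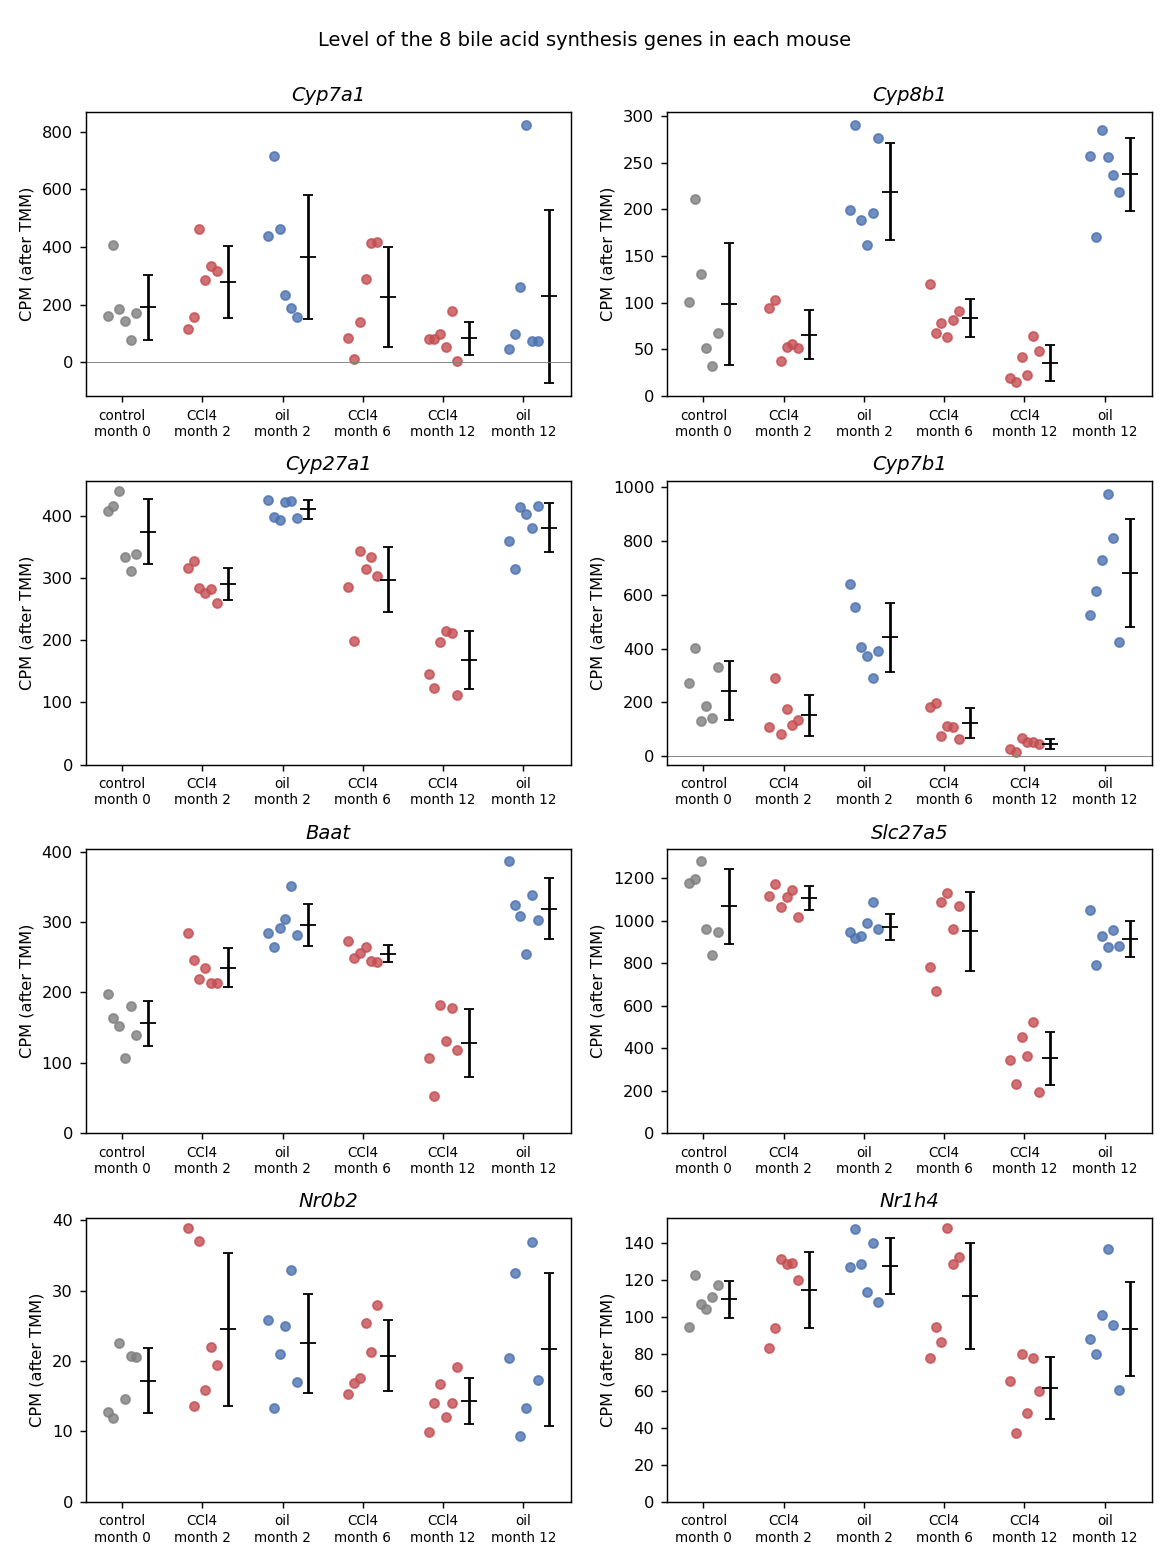
Level of each of the 8 genes in every mouse, in CPM after TMM scaling on linear axes. Each point is 1 mouse, and the bar to its right is the group mean with the SD (n = 6); red is CCl4, blue is oil and grey is the month 0 control. Cyp8b1 and Cyp7b1 were lower in all CCl4 mice than in all oil mice of the same month, while the Cyp7a1 points of CCl4 and oil mice overlapped at each month.

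Cyp7a1, the gene of the rate-limiting enzyme, was not called at any month. At month 12 it spanned 6.80, 81.6 and 177 CPM (lowest, median and highest) in CCl4 livers, against 46.0, 86.1 and 822 CPM in oil livers. The groups overlapped, their medians lay close together, and the oil mean of 229 ± 301 CPM (SD, n = 6) rested largely on 1 mouse. The month 12 log2 fold change was -1.46 (SE 0.67, edgeR adjusted p = 0.0716), and it was -0.43 without that mouse, replicate 4 of the month 12 oil group. It was called with DESeq2 (-1.47, adjusted p = 0.0474) and without replicate 5 of month 12 CCl4 (-1.80) or replicate 1 (-1.69) or 5 (-1.66) of month 12 oil. At month 2, Cyp7a1 averaged 279 ± 126 CPM in CCl4 livers and 366 ± 214 CPM in oil livers (SD, n = 6 each; log2 fold change -0.39, SE 0.66). At month 6, CCl4 livers held 12.8 to 416 CPM with a median of 214 CPM (log2 fold change -0.36, SE 0.58). Without the 8 libraries high in pancreas and intestine genes both values turned, to 0.46 at month 2 and 0.57 at month 6, and the month 6 value was 0.15 without replicate 4 of month 12 oil and 0.25 with the level of those genes as a covariate; none was called. The coefficient of variation of Cyp7a1 within a group was 45.1% to 131%.

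Transcription of Cyp7a1 follows the daily clock, and the labels used here give no hour of sampling. The log2 ratio of Arntl to Dbp, clock genes that peak at about opposite times of day, was used as a marker of clock phase. It was -2.98 to 2.14 in month 12 CCl4 livers (median -0.86), against -4.34 to 3.43 in month 12 oil livers (median 1.68). At month 2 it was -6.74 to -1.05 in CCl4 livers (median -5.97), against -6.04 to -3.10 in oil livers (median -4.75), and in month 6 CCl4 livers it was -5.99 to 3.50. The mouse with 822 CPM of Cyp7a1 had the lowest ratio of its group, -4.34. Within groups of 6, Pearson's r between the ratio and log2(CPM + 1) of Cyp7a1 was below 0 in 5 of the 6 groups. It was -0.93 in month 2 oil livers (exact permutation p = 0.00556, Spearman's rho -0.94, exact p = 0.0167) and -0.92 in month 6 CCl4 livers (exact permutation p = 0.00833, rho -0.77, exact p = 0.103). Without the 2 mice farthest from the median ratio, r was -0.94 in month 2 oil livers and -0.92 in month 6 CCl4 livers, but 0.77 in month 2 CCl4 livers, where it was -0.87 over all 6. In the same way r went from -0.76 to -0.37 in month 12 CCl4 livers and from -0.72 to -0.31 in month 12 oil livers. Over the 48 relations of 8 genes in 6 groups, 10 had an exact p under 0.05, 4 of them for Cyp7a1, and none passed the Benjamini-Hochberg adjustment (the smallest adjusted p of Cyp7a1 was 0.156). With the ratio as a covariate the month 12 log2 fold change of Cyp7a1 was -1.67 (edgeR adjusted p = 0.00583).

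**Figure D2:**
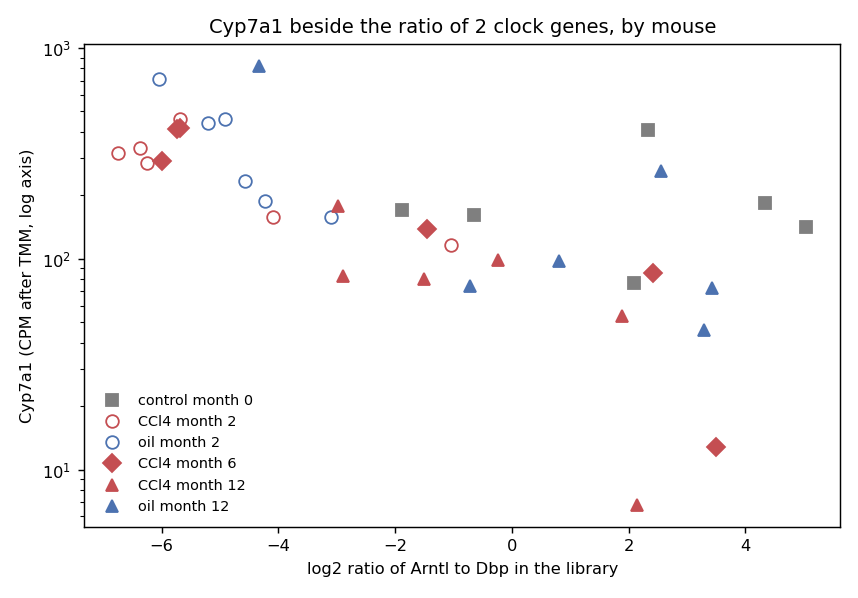
Cyp7a1 level of each mouse (CPM after TMM, log axis) against the log2 ratio of Arntl to Dbp in the same library. Each point is 1 mouse, red for CCl4, blue for oil and grey for the month 0 control; the month 12 oil mouse at 822 CPM lies at a ratio of -4.34, apart from the other 5 mice of its group.

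Cyp8b1, the 12-alpha-hydroxylase gene that sets the share of cholic acid, was lower in CCl4 livers at all 3 months. It measured 37.4, 54.5 and 102.5 CPM (lowest, median and highest) in month 2 CCl4 livers, against 162, 198 and 290 CPM in month 2 oil livers. Month 12 CCl4 livers held 14.9, 32.3 and 64.0 CPM, against 171, 246.5 and 285 CPM in month 12 oil livers. Every CCl4 mouse lay below every oil mouse at both months, and the month 6 CCl4 livers, at 63.3 to 120 CPM, also lay below all 12 oil mice. The log2 fold changes were -1.73 (SE 0.34, edgeR adjusted p = 0.000976), -1.45 (SE 0.31, adjusted p = 0.00163) and -2.76 (SE 0.36, adjusted p = 1.13e-07) at months 2, 6 and 12. At month 12 this was a 6.77-fold lower level. The month 12 effect minus the month 2 effect was -1.03 (SE 0.47, adjusted p = 0.121), which was not called, though it was without replicate 5 of month 12 CCl4 (-1.26, adjusted p = 0.0474).

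Cyp27a1, which opens the alternative route, was also lower at all 3 months. Its level was 259.5, 282.5 and 327 CPM (lowest, median and highest) in month 2 CCl4 livers, against 394, 410 and 426 CPM in month 2 oil livers. In month 12 CCl4 livers it was 112, 172 and 216 CPM, against 315, 391.5 and 416 CPM in month 12 oil livers. The groups did not overlap at either month. Log2 fold changes were -0.50 (SE 0.13, edgeR adjusted p = 0.0143), -0.41 (SE 0.12, adjusted p = 0.019) and -1.18 (SE 0.14, adjusted p = 1.44e-08) at months 2, 6 and 12. The month 6 group overlapped the oil mice, and the month 6 call was lost without replicate 2 of month 6 (-0.31, adjusted p = 0.1) and against month 12 oil alone (-0.36, adjusted p = 0.0993). With library totals alone Cyp27a1 was called neither at month 2 (-0.30, adjusted p = 0.0975) nor at month 6 (-0.10), and without the 8 libraries high in pancreas and intestine genes neither (-0.51, adjusted p = 0.153, and -0.40, adjusted p = 0.115).

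Cyp7b1, the oxysterol 7-alpha-hydroxylase gene, had the largest month 12 difference of the 8. Month 2 CCl4 livers held 83.2, 124 and 291 CPM (lowest, median and highest), against 292, 398 and 639 CPM in month 2 oil livers. Month 6 CCl4 livers held 64.4, 111 and 198 CPM. In month 12 the values were 16.4, 48.7 and 68.5 CPM in CCl4 livers, against 423, 672 and 976 CPM in oil livers. No CCl4 mouse reached the level of any oil mouse of its month, although the highest month 2 CCl4 mouse (291.4 CPM) lay just under the lowest oil mouse (292.4 CPM). The log2 fold changes were -1.55 (SE 0.34, edgeR adjusted p = 0.00267), -2.15 (SE 0.32, adjusted p = 1.83e-05) and -3.96 (SE 0.37, adjusted p = 2.4e-10), the last a 15.5-fold lower level. Without the 8 libraries high in pancreas and intestine genes the month 2 value was -1.15 (adjusted p = 0.116), and the month 12 value was -3.97. The month 12 effect minus the month 2 effect was -2.41 (SE 0.47, adjusted p = 0.000359).

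Since both enzymes of the alternative route are read in the same library, their ratio does not depend on the scaling. There were 0.133 to 0.414 Cyp7b1 counts per Cyp27a1 count in month 12 CCl4 livers (median 0.240), against 1.02 to 2.43 in month 12 oil livers (median 1.86). At month 2 the ratio was 0.294 to 0.892 in CCl4 livers (median 0.461), against 0.689 to 1.5 in oil livers (median 1.01). In month 6 CCl4 livers it was 0.212 to 0.995 (median 0.341). The month 12 groups did not overlap in this ratio, and the month 2 groups did.

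**Figure D3:**
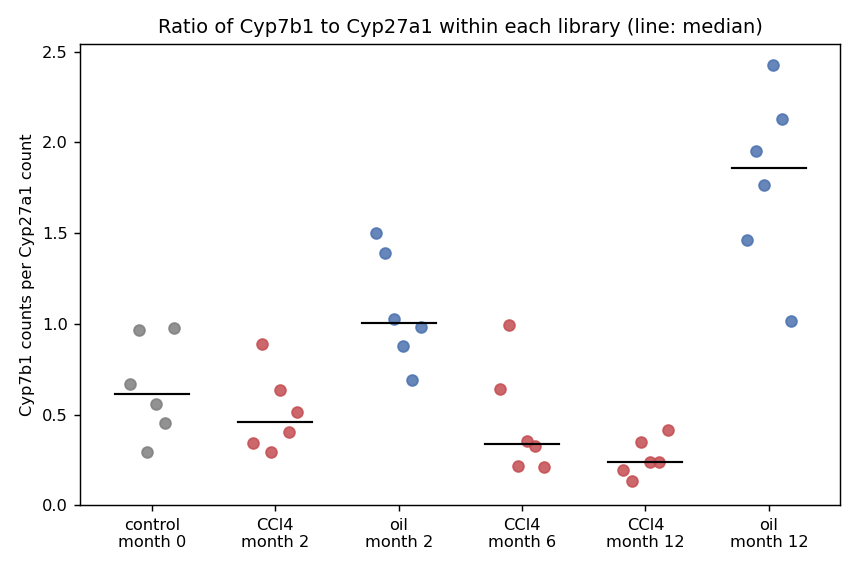
Cyp7b1 counts per Cyp27a1 count in each library, on a linear axis from 0, with the group median as a line. Each point is 1 mouse, red for CCl4, blue for oil and grey for the month 0 control; month 12 CCl4 mice lie between 0.133 and 0.414 and month 12 oil mice between 1.02 and 2.43.

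Of the 3 comparisons with oil, the conjugation genes were called at month 12, and for both the month 12 effect differed from the month 2 effect in the test of that difference. Baat measured 52.6, 124 and 182 CPM (lowest, median and highest) in month 12 CCl4 livers, against 255, 316 and 386 CPM in month 12 oil livers. Slc27a5 measured 192, 354 and 525 CPM in month 12 CCl4 livers, against 793, 904 and 1048 CPM in month 12 oil livers. All 6 CCl4 mice lay below all 6 oil mice for both genes. Log2 fold changes at month 12 were -1.32 for Baat (SE 0.17, edgeR adjusted p = 1.91e-07) and -1.38 for Slc27a5 (SE 0.16, adjusted p = 2.44e-08). At month 2 Baat averaged 235 ± 27.3 CPM in CCl4 livers and 296 ± 30.01 CPM in oil livers (SD, n = 6 each; log2 fold change -0.33, edgeR adjusted p = 0.232), and Slc27a5 averaged 1104 ± 56.4 CPM in CCl4 livers and 971 ± 62.2 CPM in oil livers (0.19, adjusted p = 0.526). At month 6 the values were -0.27 for Baat and 0.01 for Slc27a5. Baat was called at months 2 and 6 in fits of the compared groups only (adjusted p = 0.0264 and 0.0263). The month 12 minus month 2 difference was -0.99 for Baat (SE 0.24, adjusted p = 0.00349) and -1.56 for Slc27a5 (SE 0.23, adjusted p = 6.6e-06).

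**Figure D4:**
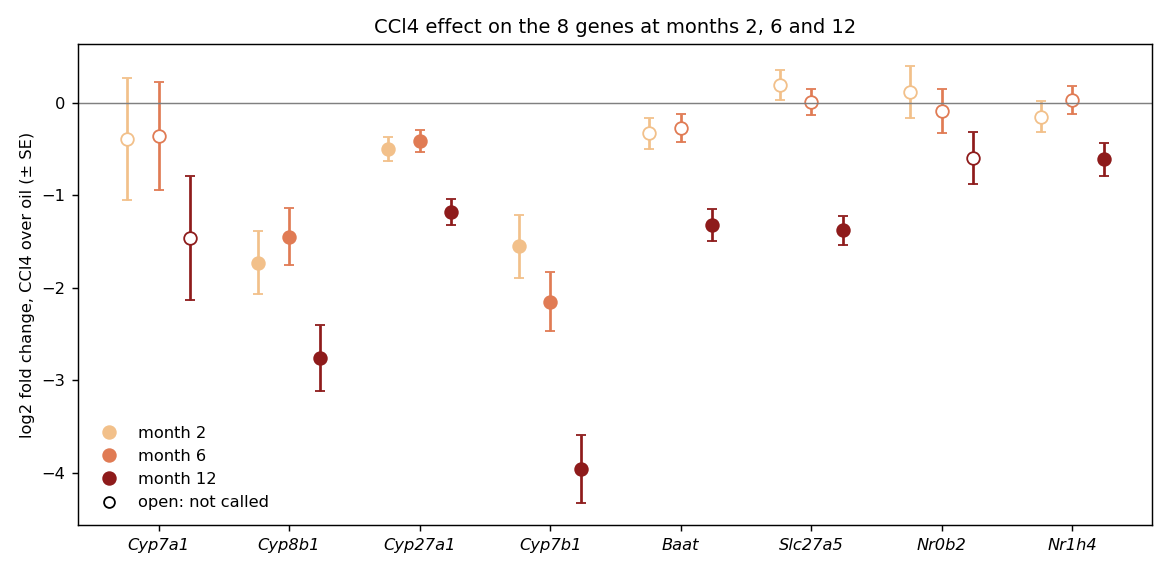
Log2 fold change of CCl4 over oil for each of the 8 genes at months 2, 6 and 12, with the SE as bars, from the edgeR fit over 36 libraries. Filled points were called and open points were not. Cyp8b1, Cyp27a1 and Cyp7b1 are filled at all 3 months, Baat, Slc27a5 and Nr1h4 at month 12, and Cyp7a1 and Nr0b2 at none.

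Nr1h4, the farnesoid X receptor gene, spanned 37.2, 62.6 and 79.98 CPM (lowest, median and highest) in month 12 CCl4 livers, against 60.4, 91.9 and 137 CPM in month 12 oil livers. Nr0b2, the small heterodimer partner gene, spanned 9.92, 14.01 and 19.1 CPM in month 12 CCl4 livers, against 9.39, 18.9 and 36.9 CPM in month 12 oil livers. Both genes overlapped between the groups. Nr1h4 was called lower at month 12 (-0.61, SE 0.18, edgeR adjusted p = 0.00428), but with library totals alone its value was -0.05 (adjusted p = 0.82). Nr0b2 was not called (-0.60, SE 0.28, adjusted p = 0.0755), and it was called without the 8 libraries high in pancreas and intestine genes (-0.83, adjusted p = 0.0358) and without replicate 3 or 4 of the month 12 oil group (-0.77 and -0.73). At months 2 and 6 neither was called, with log2 fold changes of -0.15 and 0.03 for Nr1h4 and 0.12 and -0.09 for Nr0b2. There were 0.152 to 0.376 Nr0b2 counts per Nr1h4 count in month 12 CCl4 livers (median 0.231), against 0.0926 to 0.408 in month 12 oil livers (median 0.260), and these ranges overlapped.

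Between month 12 CCl4 and month 6 CCl4 livers, 6 of 8 genes were called lower (39.2% of all genes called, 18.6% lower), with log2 fold changes of -0.82 for Cyp27a1, -0.86 for Nr1h4, -0.99 for Baat, -1.25 for Cyp8b1, -1.43 for Slc27a5 and -1.50 for Cyp7b1. Baat and Slc27a5 did not overlap between those months (5.93% of all genes were lower without overlap). Cyp7a1 (-1.44, adjusted p = 0.0886) and Nr0b2 (-0.54, adjusted p = 0.13) were not called. Between month 6 CCl4 and month 2 CCl4 livers none of the 8 was called by edgeR, DESeq2 or limma-voom and 0 had an unadjusted edgeR p under 0.05 (0.502% of all genes called). None was called by these tools for month 12 oil against month 2 oil livers either (0.0717% of all genes called by edgeR), where 1 gene, Nr1h4, had an unadjusted edgeR p under 0.05 (log2 fold change -0.45). Month 2 oil livers exceeded month 0 control livers in 3 of 8 genes (31.3% of all genes called, 14.8% higher): Cyp8b1 (1.15, SE 0.34), Baat (0.92, SE 0.17) and Cyp7b1 (0.86, SE 0.33, adjusted p = 0.0463), whose call was lost without any 1 of 18 of the 36 libraries, with limma-voom (0.93), with no filter on low counts (0.88), with the Arntl to Dbp covariate (0.92), without the 8 libraries high in pancreas and intestine genes (0.95) and with the level of those genes as a covariate (0.77). The log2 ratio of Arntl to Dbp had a median of -4.75 in month 2 oil livers and 2.22 in month 0 livers, and 8 of 16 clock genes were called higher and 3 lower. Hepatocyte markers summed to 103000 to 127000 CPM in month 2 oil livers, against 166000 to 265000 CPM in month 0 livers. The list went both ways: of 11 tested, 5 were called lower in month 2 oil livers and 1 higher. The largest falls were those of Hpx, Fgb, Fga and Fgg. Hpx averaged 5090 CPM in month 2 oil livers and 42600 CPM in month 0 livers, and Fgb 5410 and 23900 CPM. In the same groups Fga averaged 5230 and 23500 CPM and Fgg 4230 and 19000 CPM. Alb averaged 64400 CPM in month 2 oil livers and 55500 CPM in month 0 livers, Apob 13500 and 12800 CPM, and Ttr 5100 and 3920 CPM. The part of clock phase or of these markers in these differences was not tested beyond the Arntl to Dbp covariate. With the ratio as a covariate Cyp8b1 (1.37) and Baat (0.99) were still called, with 15.1% of all genes called. Baat measured 264 to 351 CPM in month 2 oil livers and 106 to 198 CPM in month 0 livers, with no overlap (6.98% of all genes were higher without overlap).

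The month 12 CCl4 group had the lowest mean of the 6 groups for each of the 8 genes. For Slc27a5 (351.5 ± 126.5 CPM, SD, n = 6) its range lay below that of every other group. For Cyp27a1 (168 ± 46.2 CPM, SD, n = 6) it did not overlap the group with the next mean up, month 2 CCl4. It did overlap month 6 CCl4, where the lowest mouse was at 199 CPM, under the highest month 12 CCl4 mouse at 216 CPM. For the other 6 genes it overlapped the next group up. The 2 oil groups had the highest means for Cyp8b1, Cyp27a1, Cyp7b1 and Baat, with overlapping ranges. Per kilobase of exon, Slc27a5 had the highest mean level of the 8 in month 12 CCl4 livers (144 CPM per kb) and in month 12 oil livers (375 CPM per kb), and Nr0b2 the lowest (12.6 and 19.1 CPM per kb). Cyp7b1 was second in month 12 oil livers at 314 CPM per kb, and in month 12 CCl4 livers, at 20.2 CPM per kb, it stood beside Cyp7a1 (19.9) and Cyp8b1 (18).

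Marker lists of other cells and states are given for month 12, where 25.9% of all genes were called higher and 23.2% lower. Of the 11 hepatocyte markers tested, 8 fell and none rose (median log2 fold change -0.80), and their summed level was 74300 to 110000 CPM in CCl4 livers, against 76100 to 123000 CPM in oil livers. Cholangiocyte markers summed to 222 to 1130 CPM in CCl4 livers, against 46.2 to 101 CPM in oil livers, with 6 of 10 tested called higher. Male-biased hepatocyte genes summed to 1280 to 8030 CPM in CCl4 livers, against 14100 to 18700 CPM in oil livers, with 15 of 16 called lower. Female-biased genes summed to 341 to 3310 CPM, against 10.0 to 15.9 CPM, with 13 of 13 tested called higher. On average most of the CCl4 sum was 1 gene, Cyp2a4, at 1310 CPM in CCl4 livers and 0.158 CPM in oil livers. Some of the 13 were low even in CCl4 livers, such as Hao2 (1.13 CPM), Cyp3a44 (1.43 CPM) and A1bg (1.48 CPM). Of the macrophage, lymphocyte, myofibroblast and matrix, and endothelial markers, 9 of 12, 5 of 10, 3 of 10 and 4 of 9 were called higher, and 0, 0, 1 and 3 lower; for the myofibroblast and matrix list this is close to the share over all genes, for the lymphocyte list the share called in either direction is, and the endothelial list went both ways. Neutrophil and blood, pancreas and intestine, and clock genes each had 1 member called higher, of 8, 11 and 16 tested, and 1, 1 and 2 called lower. Apart from Muc2, at 0 in all month 12 CCl4 livers, every listed marker in the table was detected in both groups. The part of these lists in the fall of the 8 genes was not tested.

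The other enzymes of the pathway were mostly lower at month 12. Of 20, 12 fell and 2 rose (median log2 fold change -0.50, beside 0.01 over all genes), where 23.2% of all genes fell and 25.9% rose. At months 2 and 6 there were 2 calls and 1, no more than the 10.4% and 11.4% called over all genes would give in 20. Scp2, a peroxisomal thiolase and sterol carrier gene of side chain shortening, averaged 1830 CPM in month 12 CCl4 livers and 4840 CPM in month 12 oil livers (log2 fold change -1.40, edgeR adjusted p = 7.2e-10). Hsd3b7, the dehydrogenase that follows both 7-alpha-hydroxylases, averaged 196 CPM in CCl4 livers and 524 CPM in oil livers (-1.41, adjusted p = 4.23e-08). Akr1c6 (-1.64) and Acnat1 (-1.46) were also lower, but reads may be shared with their close copies, so these are uncertain. The oxysterol 7-alpha-hydroxylase gene Cyp39a1 rose to 27 CPM in CCl4 livers, against 15.8 CPM in oil livers (0.77, adjusted p = 0.0123; 0.47 and not called without replicate 6 of month 12 CCl4). Acox2 fell (-0.45) and Cyp39a1 rose (0.81) at month 2, and no call was left in this list when replicate 4, 5 or 6 of month 2 CCl4 or replicate 1 of month 2 oil was left out. At month 6 the call was Cyp2c70, the muricholic acid hydroxylase (-0.63, adjusted p = 0.0176), which was lost without replicate 6 of month 6 (-0.55), against month 2 oil alone (-0.40) and with library totals alone (-0.31).

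Genes of bile acid transport went both ways. At month 12, 8 of 14 tested rose and 5 fell, where 25.9% of all genes rose and 23.2% fell. Slco1a1, an uptake carrier, averaged 4.28 CPM in CCl4 livers and 730 CPM in oil livers (log2 fold change -7.41, SE 0.38, edgeR adjusted p = 1.33e-16), and it was also lower at month 2 (-1.50) and month 6 (-2.72). Slc10a1, the sodium-dependent taurocholate uptake gene, averaged 98.7 CPM in CCl4 livers and 370 CPM in oil livers (-1.91, adjusted p = 1.55e-09). The uptake gene Slco1b2 fell by 1.90 on the log2 scale, and the flippase gene Atp8b1 by 0.64, where library totals alone gave -0.08 and no call for Atp8b1. The basolateral export genes were higher: Abcc4 averaged 62.7 CPM in CCl4 livers and 3.52 CPM in oil livers (4.15, SE 0.24), and Abcc3 314 CPM in CCl4 livers and 101 CPM in oil livers (1.63, SE 0.21). Export genes did not all rise. Abcb11, the bile salt export pump gene, averaged 421 CPM in CCl4 livers and 964 CPM in oil livers (-1.20, edgeR adjusted p = 3.48e-06). The sterol exporter gene Abcg5 (1.12) and Ephx1 (1.74), which encodes an epoxide hydrolase, rose as well. Without the 8 libraries high in pancreas and intestine genes, 7 rose and 5 fell. At month 6, where 11.4% of all genes were called, 1 rose and 5 fell, among them Atp8b1 (-0.37) and Abcg8 (-0.78), and the count of 6 calls was 3 without replicate 1 or 2 of month 6, without those 8 libraries, or with 1 oil group alone as the comparison. Against month 12 oil alone Abcg8 was at -0.51 and not called, and against month 2 oil alone Atp8b1 was at -0.27 and not called.

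Among 25 regulators tested, 6 fell and 3 rose at month 12 (median log2 fold change -0.16), a share of calls below the 49.1% over all genes and, for those that fell, close to the 23.2% over all genes. Foxa1, a pioneer factor of hepatocytes, averaged 2.58 CPM in CCl4 livers and 6.22 CPM in oil livers (-1.27, edgeR adjusted p = 2.08e-05), and the deacetylase gene Sirt1 9.37 CPM in CCl4 livers and 15.4 CPM in oil livers (-0.72, adjusted p = 6.39e-09). Rxra, the partner of the farnesoid X receptor (-0.39), and Prox1, a co-repressor (-0.60), were lower, but with library totals alone Rxra was at 0.17, Prox1 at -0.05 and Sirt1 at -0.17, none of them called. Rxra was not called without replicate 6 of month 12 CCl4 (-0.30), nor Prox1 without replicate 4 of either month 12 group (-0.51 and -0.48). Fgf21, a hepatic hormone gene, averaged 7.96 CPM in CCl4 livers and 0.539 CPM in oil livers (3.88, SE 0.46), after a lower value at month 2 (-1.84, SE 0.49). Gps2, a co-repressor subunit, rose by 0.39. Vdr, a receptor for vitamin D and lithocholic acid, was at 0.904 CPM in CCl4 livers and 0.142 CPM in oil livers (2.61), a call lost without replicate 2 or 6 of month 12 CCl4 or replicate 1, 3 or 6 of month 12 oil, and without the 8 libraries high in pancreas and intestine genes (2.42). At month 2 Vdr was at 3.31, at -0.92 without replicate 6 of month 2 CCl4, and not called without replicate 1 or 3 of month 2 oil. Of the 25 regulators, 1 rose and 2 fell at month 2, and 0 rose and 1 fell at month 6. These shares were close to or below those over all genes, of which 10.4% and 11.4% were called. The constitutive androstane receptor gene Nr1i3 was lower at month 2 (-0.89, edgeR adjusted p = 0.0448) and month 6 (-1.02, adjusted p = 0.00885). Its month 2 call was lost without any 1 of replicates 1 to 4 of month 2 CCl4 or 1, 2, 3 or 5 of month 2 oil, and both were lost without the 8 libraries high in pancreas and intestine genes (-0.83 and -0.86). The month 6 call was also lost against month 12 oil alone (-0.52). Hnf4a and Nr5a2 encode the factors whose elements are marked in the promoters, hepatocyte nuclear factor 4 alpha and liver receptor homolog 1, and were chosen for this reason after their values were seen. Hnf4a averaged 340 CPM in month 12 CCl4 livers and 380 CPM in month 12 oil livers (-0.16, adjusted p = 0.278, not called). Nr5a2 averaged 59 CPM in month 12 CCl4 livers and 69.5 CPM in month 12 oil livers and was called lower (-0.23, edgeR adjusted p = 0.0309). That call was lost without any 1 of 6 libraries, replicates 1, 4 and 5 of month 12 CCl4, replicate 5 of month 12 oil, replicate 3 of month 2 CCl4 and replicate 2 of month 6, with no filter on low counts (-0.22) and in a fit of the compared groups only (-0.21). With library totals alone Hnf4a was at 0.39 and Nr5a2 at 0.32, both called higher.

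**Figure D5:**
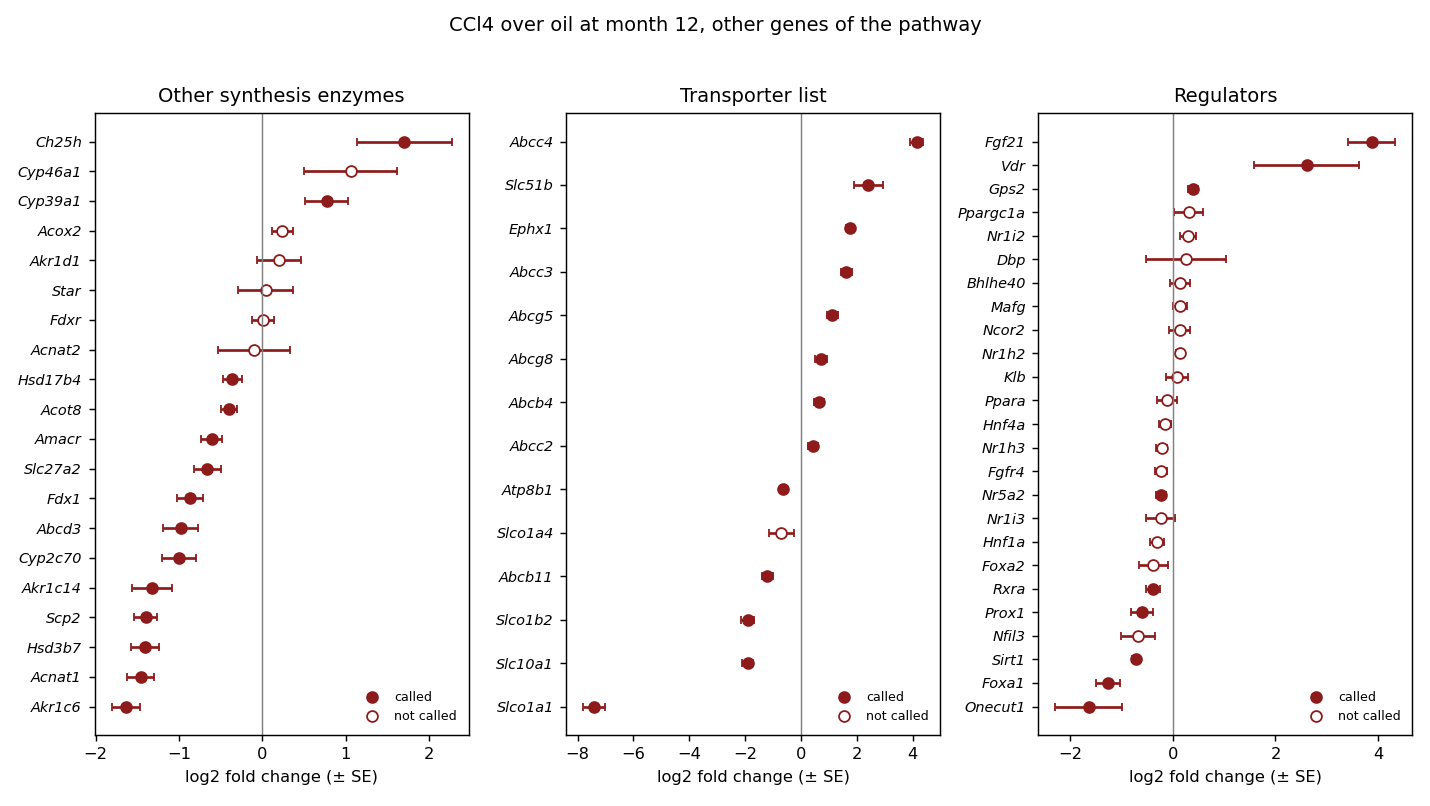
Log2 fold change of CCl4 over oil at month 12 for the other genes of the pathway, with the SE as bars, in 3 panels with their own axes for synthesis enzymes, transport genes and regulators. Filled points were called and open points were not: 12 of 20 enzymes fell, 8 of 14 transport genes rose and 5 fell, and 6 of 25 regulators fell.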

How the data were processed

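Per the labels, reads from a stranded library of ribosomal RNA depleted liver RNA were mapped with Biojupies. Per the submitters' processing notes the tools included edgeR 3.30.3 and limma 3.44.3, in no stated role, and the build was mm10. Annotation and strand setting are not given in the sources used here, and lanes are not labelled. The deposited values are raw read counts per gene, made by the authors. The 8 members and all gene lists were chosen with earlier results of these data known, so their directions are not independent evidence. Genes were filtered with filterByExpr, scaled by TMM and tested in 1 fit (a term per group, 36 libraries) with edgeR 4.0.16 in R 4.3.3, with Benjamini-Hochberg adjustment over 15338 genes. In data simulated for the month 12 comparison (15171 genes, 200 changed), 84% of 2-fold and 96% of 4-fold changes were called, and 2.7% of calls were false. As many of these changes went up as down, while 49.1% of all genes were called at month 12 in the real data. The simulated share of false calls therefore does not cover the dependence on scaling. Alternatives were other scalings, filters and comparison groups, DESeq2 1.42.0, limma-voom 3.58.1, a replicate block, covariates and leaving out libraries.

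Pathway genes are named if called, with a mean of at least 1 CPM in 1 group: the 4 with the smallest p in each direction at month 12, and the 3 with the smallest p at months 2 and 6. Abcb11 was added outside this rule after its values were seen, and its values under the alternatives are not given. For each member, the 3 genes with the highest Pearson r over the 36 libraries are named, with predicted and clone names left out. Marker lists are given by sums and counts. No 2 replicates agreed within sampling noise (lowest chi-square per degree of freedom 22.88 over 90 pairs). The labels do not state that each numbered replicate is a separate mouse, so p-values measure the spread between these libraries, which may be technical. Positions and exon lengths come from a mm10 annotation, by gene symbol: no exon of the 8 genes overlapped another gene.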

Additional observations from a re-analysis of the deposited data

Results flagged for a closer look

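The effect of CCl4 differed between month 12 and month 2 for 4 of the 8 genes by the interaction term of the edgeR fit (21.3% of all genes tested were called, 10.1% lower). The month 12 effect minus the month 2 effect was -2.41 for Cyp7b1, -1.56 for Slc27a5, -0.99 for Baat and -0.68 for Cyp27a1. For Cyp27a1 (SE 0.19, adjusted p = 0.00901) the call was lost with library totals alone (-0.33) and without the 8 libraries high in pancreas and intestine genes (-0.65). Slc27a5 had a mean of 1104 CPM in CCl4 livers and 971 CPM in oil livers at month 2, and 351.5 CPM in CCl4 livers and 913 CPM in oil livers at month 12.

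In 2 of 48 groups of 6 mice, 1 mouse stood far from the rest of its group, both times for Cyp7a1. About 1 group in 20 does so by chance. Replicate 4 of month 12 oil was at 822 CPM, with the next mouse at 260.0 CPM; its library held 31600 CPM of pancreas and intestine genes and the lowest Arntl to Dbp ratio of its group. Replicate 2 of the month 0 control was at 408 CPM, with 10600 CPM of pancreas and intestine genes.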

How the results depend on the processing

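Months 6 and 12, the month 12 minus month 2 difference and the CCl4 courses gave counts of called genes within 1.5 times the reported ones under every alternative run; leaving out 1 library gave 3 to 3 at month 2, 2 to 3 at month 6, 6 to 7 at month 12, 4 to 5 for the difference between months and 2 to 3 for month 2 oil against month 0. These counts ignore direction, and with library totals alone the month 6 calls went both ways, as given above. The month 2 count was 1 without the 8 libraries high in pancreas and intestine genes (an alternative chosen after seeing the data), where 469 of 15846 genes were called beside 1591 of 15338. Month 2 oil against month 0 gave 5 with library totals alone. Same-numbered mice did not pair (correlation of deviations over 0.1 in 22 of 90 pairs, median -0.0303), and with the replicate block 3, 3 and 6 of the 8 genes were called at months 2, 6 and 12 and 1477, 1652 and 7482 genes in all; the block ended the month 2 calls of Cyp39a1 (0.78) and Vdr (1.86). Of the 8 genes and named pathway genes, values that changed sign were otherwise uncalled ones, Rxra (0.17), Nr5a2 (0.32) and Vdr excepted; the cause was not tested. With library totals alone they were also Hnf4a at month 12 (0.39), Nr1h4 at month 2 (0.05), Baat (0.04) and Nr0b2 (0.22) at month 6, Nr1h4 for CCl4 month 6 against 2 (0.02) and Slc27a5 for month 2 oil against month 0 (0.10). With month 0 joined to month 2 oil, Cyp7a1 (0.08) and Baat (0.13) were above 0. Against month 2 oil alone, month 6 gave -0.03 for Slc27a5 and -0.19 for Nr1h4. With limma-voom, Slc27a5 at month 6 was -0.01. With the Arntl to Dbp covariate, month 6 gave -0.01 for Slc27a5 and 0.00 for Nr1h4, CCl4 month 6 against 2 gave 0.21 for Cyp7a1 and 0.15 for Nr1h4, oil month 12 against 2 gave 0.76 for Cyp7a1, -0.06 for Cyp8b1 and 0.08 for Slc27a5, and month 2 oil against month 0 gave -1.48 for Cyp7a1 and -0.26 for Nr1h4. Without the 8 libraries, Cyp7a1 was 0.46 at month 2 and 0.57 at month 6, Nr0b2 0.00 at month 2 and Slc27a5 -0.04 at month 6; with their marker level as a covariate, Cyp7a1 was 0.25 and Slc27a5 -0.01 at month 6, and Cyp7a1 0.07 for CCl4 month 6 against 2. Leaving out 1 library spanned 0 for Nr0b2 at months 2 (-0.08 to 0.26) and 6 (-0.21 to 0.00), Slc27a5 (-0.05 to 0.10), Nr1h4 (-0.07 to 0.11) and Cyp7a1 (-0.64 to 0.15) at month 6, Cyp7b1 (-0.47 to 0.01), Nr1h4 (-0.14 to 0.04) and Cyp27a1 (-0.01 to 0.13) for CCl4 month 6 against 2, Nr0b2 (-0.27 to 0.10) for oil month 12 against 2, and Vdr at month 2 (-0.92 to 3.75).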

Other observations

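For each of the 8, the genes with the highest Pearson's r of log2(CPM + 1) over the 36 libraries are given. The 14254 genes compared leave out predicted and clone names (Gm-number, Rik, LOC, AC and BC), and negative r was not ranked. This is a description, since all 36 libraries share the group differences. Cyp7b1 was closest to the major urinary protein genes Mup12 (r = 0.96), Mup9 (0.95) and Mup11 (0.95), near-identical copies whose counts are uncertain. Cyp8b1 was closest to Elovl3, a fatty acid elongase gene (r = 0.93), Adh6-ps1 (0.89) and Slc22a28 (0.89). For Slc27a5 the genes were Dpyd (r = 0.97), Rgn (0.95) and Nat8f1 (0.95), for Cyp27a1 Aldh8a1 (0.95), Slc6a12 (0.95) and Clcc1 (0.93), and for Baat Slc22a30 (0.92), Sugct (0.91) and Etfa (0.90). Nr1h4 was closest to Ndufaf4 (r = 0.88), Snw1 (0.85) and Cxcl12 (0.84), and Cyp7a1 to Fastkd1 (0.86), Pex26 (0.82) and Gne (0.82). Among the genes compared, Nr0b2 had no neighbour above Cdkn2aip (r = 0.61), followed by Zfp36 (0.57) and Zfp85 (0.54).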
